A study of Homo sapiens with 9 samples.

Results

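The 119 genes described here were flat from the control transfection to the lower dose of a microRNA mimic and higher in every library of the upper dose. They were selected on the expression values themselves, from 14943 genes in the count table. A gene was kept if its mean over the 9 libraries was at least 5 CPM (the count divided by the library total and multiplied by 1000000), its mean at 10 nM was within 0.1 on the log2 scale of its Ctrl. mean, each of the 3 libraries at 20 nM lay above each of the 6 others, and the mean of replicates 1 and 2 at 20 nM lay at least 0.25 (log2) above the mean of those 6. 11676 genes reached 5 CPM, 7577 of these were flat from Ctrl. to 10 nM, 362 of the flat genes had all 20 nM libraries on top, and 119 passed the size threshold. All 119 were protein-coding, and they lay on 23 chromosomes. Since these values chose the members, the levels and calls given below for the 3 groups are a description and carry no test.

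The cells were SH-Sy5y, a human neuroblastoma line with neuronal features that grows in culture, measured by sequencing of polyadenylated RNA 48 h after transfection with a synthetic mimic of miR-1229-3p. Each group had 3 libraries and the same 40 pmol of oligonucleotide in all. Ctrl. received 40 pmol of a negative control oligonucleotide and no mimic. The 10 nM group received 20 pmol of mimic with 20 pmol of the control oligonucleotide. The 20 nM group received 40 pmol of mimic and 0 pmol of the control oligonucleotide, so the full dose of mimic and the absence of the control oligonucleotide cannot be told apart in any comparison of 20 nM with another group. Where possible a pair of wells was pooled for 1 RNA sample, and nothing in the labels beyond the replicate number says that replicates were separate cultures, so the spread between them may be partly technical. In bulk RNA, more cells of a state and more RNA per cell cannot be told apart.

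Library totals ran from 17423969 to 28192775 estimated counts. Of the 10 noradrenergic neuroblast markers checked, 9 were well expressed, among them DBH and HAND2, while TH was below 1 CPM in every library, and their summed level was 6630 to 6697 CPM in Ctrl., 6917 to 7382 CPM at 10 nM and 6520 to 7422 CPM at 20 nM. The 9 listed mesenchymal markers summed to 1576 to 1681 CPM in Ctrl., 1565 to 1684 CPM at 10 nM and 1588 to 1627 CPM at 20 nM. These sums hide opposite moves of single markers, largest in replicate 3 of 20 nM. There TWIST1 was at 665 CPM and VIM at 746 CPM, against 391 and 1009 CPM in replicate 3 of Ctrl. Likewise CHGA was at 953 CPM and STMN2 at 371 CPM, against 660 and 638 CPM. The part of cell state in the values below was not tested. Replicate 3 of 20 nM stood apart, with a TMM scaling factor of 0.961 against 0.9995 to 1.013 in the other 8 libraries. Without it the selection rule, which then had 1 library fewer to separate, found 229 genes.

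microRNAs guide Argonaute proteins to messenger RNAs mainly through the seed, the bases near their 5′ end, which pair with short complementary sites in 3′ untranslated regions (3′ UTRs), and a paired message is usually destabilised. A transfected small RNA can therefore lower messages that carry its seed match. The mature mimic sequence is shown because its seed decides which 3′ UTR words were searched first, with the seed (bases 2 to 8) in capitals and the sequence from RefSeq:
hsa-miR-1229-3p: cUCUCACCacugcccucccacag

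The mean levels of the 119 genes ran from 5.11 to 661 CPM with a median of 36.003 CPM. The median over all 14943 genes was 28.2 CPM, but these include genes under the 5 CPM floor of the rule. The members are therefore not read as more abundant than other genes. At 20 nM, replicates 1 and 2 together lay a median of 0.34 (log2) above the 6 other libraries, with a range of 0.25 to 1.10, and replicate 3 lay a median of 0.32 above them, with a range of 0.08 to 1.27. In 16 genes the difference in replicates 1 and 2 was at least 1.5-fold, and in 68 it was under 1.3-fold. Replicate 3, whose size the rule did not set beyond its lying on top, was at least 0.25 above the rest in 83 of the 119 and below that in 36. It was the highest 20 nM library in 36 genes, replicate 1 in 45 and replicate 2 in 38. Between Ctrl. and 10 nM, 95 of the 119, or 79.8%, had the higher mean at 10 nM, against 51.1% of the 7577 flat genes, with a median difference of 0.04 (log2) in the 119. The rule bounded this difference, so nothing is read from it.

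**Figure D1:**
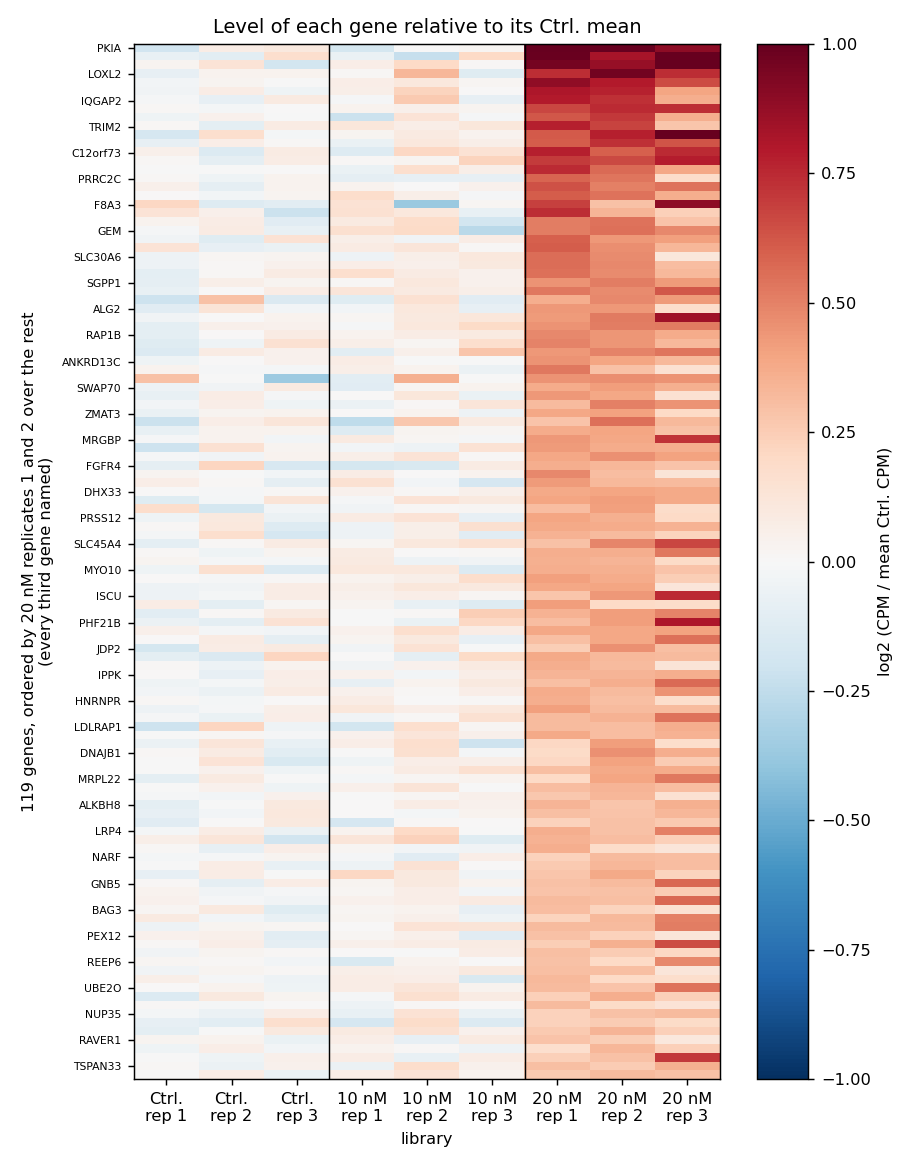
Each row is one of the 119 genes and each column one of the 9 libraries; the colour is the log2 ratio of the library's CPM to the gene's mean in Ctrl., cut at 1 in either direction. The 6 Ctrl. and 10 nM columns stay pale, the 3 columns of 20 nM are red throughout, and replicate 3 of 20 nM is the most uneven of them.

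In edgeR's quasi-likelihood fit over all genes, with Benjamini-Hochberg adjustment and a threshold of 0.05, 100 of the 119 were called higher in 20 nM against Ctrl., where 7.8% of all genes were called higher and 6.08% lower. Against 10 nM, 85 of the 119 were called higher, where 1.91% of all genes were called higher and 0.883% lower. In 10 nM against Ctrl., 0 of the 119 were called in either direction, where 0.649% of all genes, 97 genes in all, passed the adjusted threshold, 3 genes did so with a replicate block, 2084 genes passed an unadjusted one of 0.05 and DESeq2 called 218 genes but again 0 of the 119. All 20 nM libraries lay above the 6 others in 5.68% of the genes of at least 5 CPM. The rule used the same contrasts, so nothing is read from these counts. The 85 fell to 29 without the surrogate variable of the fit, to 44 with a replicate block in place of it, and to 34 without replicate 1 and 45 without replicate 2 of 20 nM, while the 100 stayed between 83 and 108 under every alternative fit. The fitted log2 fold change of the members in 20 nM against Ctrl. had a median of 0.37 and a range of 0.23 to 1.08, with standard errors of 0.04 to 0.19, while the median over all genes was 0.00.

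The boundaries of the set were narrow. On the size threshold of 0.25, the nearest genes inside were MBTPS1 at 0.25 and TSPAN33 at 0.25, and the nearest outside were CLMN at 0.25 (0.249891 unrounded) and SCO2 at 0.25 (0.249231 unrounded). On the flat step, TRIM2 and ERLIN1 lay inside at 0.10 each and PCTP and RSL24D1 outside at 0.10 each. On the abundance threshold, JDP2 at 5.11 CPM and CSKMT at 7.06 CPM lay inside, and CIDECP1 at 4.82 CPM and PLEKHD1 at 4.77 CPM outside. On the separation of the groups, SLC30A6 and PCOLCE2 were inside with their lowest 20 nM library 0.01 (log2) above the highest of the other 6, and HSP90AA1 and RNF122 missed it by less than 0.01. ECE1 and UHMK1, left out of the set by the rule, also failed its flat step, with 10 nM means 0.23 and 0.21 (log2) above Ctrl.

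The gene with the largest shift was PKIA, which encodes an inhibitor peptide of cAMP-dependent protein kinase. PKIA was measured at 13.1, 15.7 and 15.97 CPM in replicates 1, 2 and 3 of Ctrl., 13.2, 14.9 and 15.1 CPM at 10 nM and 30.4, 32.6 and 27.7 CPM at 20 nM, a fold of 2.06 of the 20 nM mean over the other 6 libraries. All 3 libraries at 20 nM were about double the 6 others, and Ctrl. and 10 nM overlapped. It led the largest role group, 18 genes of kinases, receptors, G proteins and their adaptors, grouped after the values were seen, with a median of 0.39 (log2) in replicates 1 and 2 and 0.34 in replicate 3. STAT3, a transcription factor activated by cytokine receptors, was next in this group. The level of STAT3 was 70.4, 78.2 and 75.2 CPM in Ctrl., 71.2, 80.3 and 77.7 CPM at 10 nM and 114, 124 and 115 CPM at 20 nM, with a fold of 1.56 for 20 nM over the rest. The 20 nM libraries of STAT3 lay close together and far from the rest. DYRK2, a kinase that acts in the DNA damage response and in protein turnover, showed the same even step. In Ctrl. DYRK2 stood at 71.98, 65.5 and 71.2 CPM, at 10 nM at 71.3, 69.7 and 71.7 CPM and at 20 nM at 108, 98.5 and 101 CPM.

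The more abundant signalling genes were likewise free of overlap between 20 nM and the rest, which the rule required of every member. YWHAG, a 14-3-3 protein that binds phosphorylated partners, was the second most abundant member. YWHAG gave 383, 426 and 422 CPM in the Ctrl. libraries, 406, 442 and 469 CPM in those of 10 nM and 559.9, 586 and 587 CPM in those of 20 nM. Its 10 nM libraries overlapped Ctrl. IGF1R, the receptor tyrosine kinase for insulin-like growth factors, also belonged here. The level of IGF1R was 265, 272 and 258 CPM in Ctrl., 275, 290.5 and 265 CPM at 10 nM and 328, 335 and 328 CPM at 20 nM, with a fold of 1.22 for 20 nM over the rest. Its 20 nM libraries lay close together. The remaining members of the group included APPL1, an endosomal adaptor, at 0.54 (log2) in replicates 1 and 2, the small GTPases RAP1B at 0.43 and RAP2A at 0.33, PDPK1, the kinase that activates AKT, at 0.32, FGFR4, a fibroblast growth factor receptor, at 0.39, and LDLRAD4, a membrane protein that dampens TGF-beta signalling, at 0.52.

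The 9 genes of shedding proteases, matrix and cell surface had the highest median of all groups of more than 3 members, 0.50 (log2) in replicates 1 and 2 and 0.54 in replicate 3. ANGPTL2, a secreted angiopoietin-like glycoprotein, led them. In Ctrl. ANGPTL2 stood at 11.2, 12.1 and 9.699 CPM, at 10 nM at 11.5, 12.6 and 11.1 CPM and at 20 nM at 21.4, 20.1 and 24.2 CPM. Its replicate 3 at 20 nM was the highest of the 9 libraries. LOXL2, a secreted lysyl oxidase that crosslinks collagen, varied more within groups. LOXL2 gave 14.8, 16.1 and 16.04 CPM in the Ctrl. libraries, 15.8, 19.6 and 14.4 CPM in those of 10 nM and 26.1, 30.5 and 26.1 CPM in those of 20 nM. Its 10 nM replicate 2 stood above the other Ctrl. and 10 nM libraries yet below all of 20 nM. Both metalloproteases of the ADAM family in the set cleave membrane proteins at the cell surface, ADAM9 and ADAM17, the latter the tumour necrosis factor convertase that also cuts Notch. The level of ADAM9 was 29.8, 30.99 and 30.4 CPM in Ctrl., 31.9, 32.7 and 30.9 CPM at 10 nM and 56.3, 52.8 and 47.7 CPM at 20 nM, with a fold of 1.68 for 20 nM over the rest. In Ctrl. ADAM17 stood at 73.01, 62.9 and 63.7 CPM, at 10 nM at 70.3, 72.6 and 66.9 CPM and at 20 nM at 101, 91.8 and 83.6 CPM. Each had its lowest 20 nM value in replicate 3. CELSR2, a seven-pass cadherin of planar cell polarity, had evenly high 20 nM libraries. CELSR2 gave 89.7, 83.6 and 93.6 CPM in the Ctrl. libraries, 89.8, 90.4 and 104 CPM in those of 10 nM and 144, 140.4 and 154 CPM in those of 20 nM. PRSS12, the secreted serine protease neurotrypsin, was the most abundant member of the whole set. The level of PRSS12 was 587, 646 and 579.9 CPM in Ctrl., 639.8, 664 and 569.8 CPM at 10 nM and 794, 774 and 692 CPM at 20 nM, with a fold of 1.23 for 20 nM over the rest. LRP4, the agrin receptor of the neuromuscular junction, XYLT2, the xylosyltransferase that starts glycosaminoglycan chains, and PCOLCE2, an enhancer of procollagen processing, lay at 0.29, 0.28 and 0.28 (log2) in replicates 1 and 2.

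**Figure D2:**
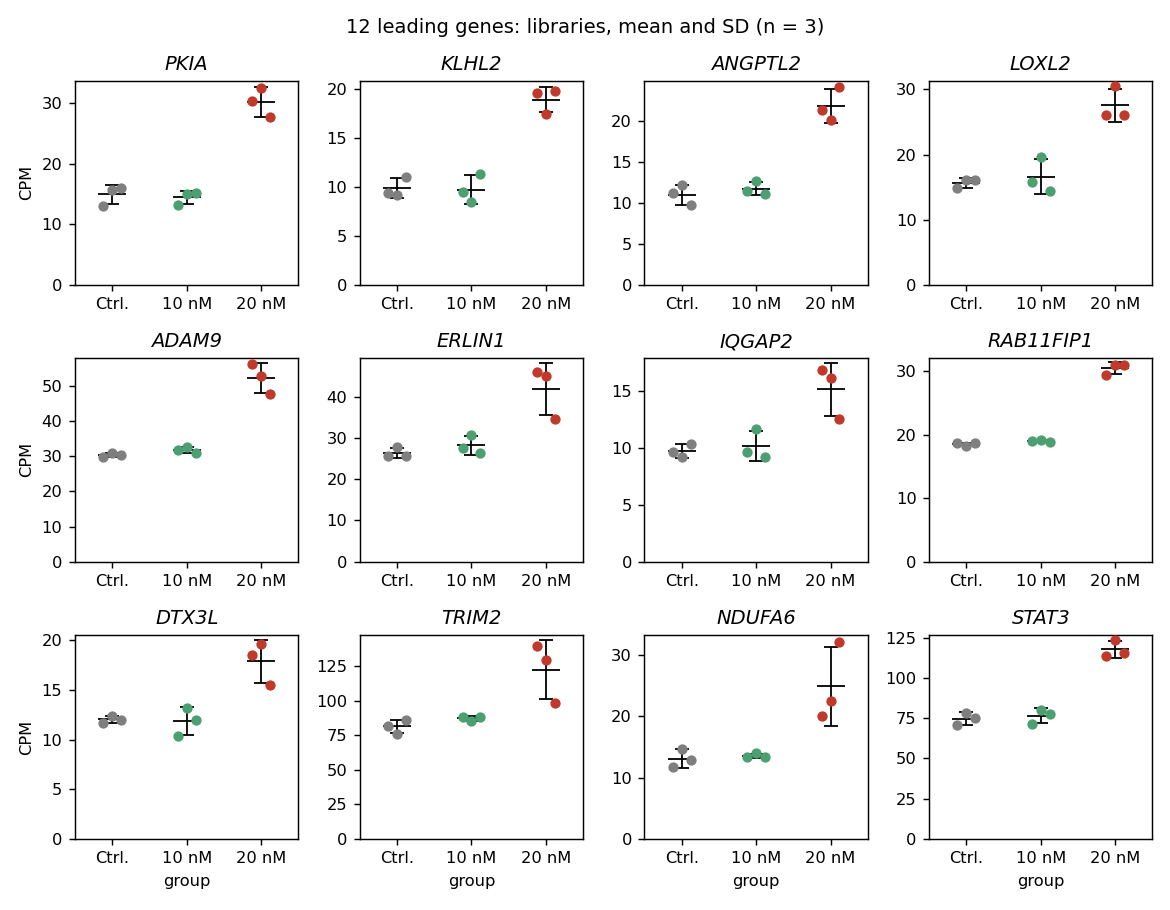
CPM (vertical axis, from 0) of the 12 members with the largest difference in replicates 1 and 2 at 20 nM; points are libraries in replicate order, the horizontal mark is the mean and the error bar the SD of 3 libraries. In each panel the 3 points of 20 nM lie above the 6 others, while the points of Ctrl. and 10 nM overlap in most.

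The 10 ubiquitin and SUMO enzymes were led by KLHL2, a substrate adaptor of the cullin-3 ubiquitin ligase. In Ctrl. KLHL2 stood at 9.397, 9.15 and 11.1 CPM, at 10 nM at 9.43, 8.43 and 11.3 CPM and at 20 nM at 19.6, 17.5 and 19.8 CPM. Its 20 nM libraries were clearly apart from the rest, and those of Ctrl. and 10 nM overlapped. The ubiquitin ligases DTX3L and TRIM2 followed, with DTX3L acting with PARP9 in the response to DNA damage and interferon, and TRIM2 known in axons. DTX3L gave 11.7, 12.4 and 12.001 CPM in the Ctrl. libraries, 10.4, 13.2 and 11.9 CPM in those of 10 nM and 18.5, 19.7 and 15.5 CPM in those of 20 nM. The level of TRIM2 was 81.9, 76.1 and 86.01 CPM in Ctrl., 88.1, 85.3 and 88.02 CPM at 10 nM and 139.5, 129.7 and 98.5 CPM at 20 nM, with a fold of 1.45 for 20 nM over the rest. In TRIM2, replicate 3 of 20 nM was well below replicates 1 and 2 and not far above 10 nM. The other members of the group, SENP2, SIAH2, RNF166, UBE2E3, BRCC3, USP10 and UBE2O, lay between 0.26 and 0.35 (log2) in replicates 1 and 2.

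The 10 genes of the endoplasmic reticulum, sterol control and glycosylation had a median of 0.32 (log2) in replicates 1 and 2 and 0.31 in replicate 3. ERLIN1, a membrane protein of the endoplasmic reticulum that acts in degradation of proteins there and in sterol control, came first. In Ctrl. ERLIN1 stood at 25.7, 27.8 and 25.6 CPM, at 10 nM at 27.5, 30.8 and 26.4 CPM and at 20 nM at 46.05, 44.95 and 34.7 CPM. Its replicate 3 at 20 nM was lower than the other 20 nM libraries but above all others. Its partner ERLIN2 lay at 0.29 and DERL1, a channel component of the same degradation route, at 0.34. MBTPS1, the site-1 protease that cleaves sterol regulatory element-binding proteins, lay at 0.25, and SPRING1, which is needed for site-1 protease maturation, at 0.29. ALG2 and DPY19L3, enzymes of N-linked and C-linked glycosylation, lay at 0.44 and 0.38, and SLC35A1, the Golgi transporter of CMP-sialic acid, at 0.40.

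Of the 15 genes of mitochondria and metabolism, NDUFA6 is a subunit of respiratory complex I. Its replicate 3 at 20 nM lay 1.27 (log2) above the 6 other libraries, the largest such difference of the whole set. NDUFA6 gave 11.7, 14.7 and 12.9 CPM in the Ctrl. libraries, 13.4, 13.98 and 13.4 CPM in those of 10 nM and 20.1, 22.4 and 32.2 CPM in those of 20 nM. For NDUFA6, replicate 3 was well above replicates 1 and 2. C12orf73, a small mitochondrial protein of complex III assembly, was more even. The level of C12orf73 was 8.47, 7.45 and 8.66 CPM in Ctrl., 7.48, 9.46 and 9.07 CPM at 10 nM and 14.1, 12.4 and 13.7 CPM at 20 nM, with a fold of 1.59 for 20 nM over the rest. PYGL, the liver form of glycogen phosphorylase, lay at 0.51 (log2) in replicates 1 and 2, and ISCU, the scaffold on which iron-sulfur clusters are built, at 0.34, with 0.73 in replicate 3. GLO1, the glyoxalase that clears methylglyoxal, lay at 0.34 and 0.08.

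The 10 cytoskeletal genes had a median of 0.39 (log2) in replicates 1 and 2. IQGAP2, a scaffold for Rac and Cdc42, had the largest shift among them. In Ctrl. IQGAP2 stood at 9.603, 9.15 and 10.3 CPM, at 10 nM at 9.62, 11.6 and 9.18 CPM and at 20 nM at 16.8, 16.1 and 12.5 CPM. Its 10 nM replicate 2 came closest to the 20 nM libraries. GEM, a small GTPase that restrains calcium channels, and SYNM, an intermediate filament protein, lay at 0.51 and 0.45, ARPC4, a subunit of the actin-nucleating Arp2/3 complex, at 0.42, and DOCK1, an activator of Rac, at 0.26. ARPC4 shares its locus with a readthrough gene, so its counts may be split. Among the 7 genes of membrane traffic and autophagy, RAB11FIP1, an effector of the recycling endosome GTPase Rab11, was the tightest of the leading members. RAB11FIP1 gave 18.7, 18.3 and 18.6 CPM in the Ctrl. libraries, 18.96, 19.2 and 18.9 CPM in those of 10 nM and 29.5, 31.1 and 31.01 CPM in those of 20 nM. The 6 other libraries of RAB11FIP1 lay within a narrow band far below those of 20 nM. DENND6A, an exchange factor for Rab14, lay at 0.50, and TECPR1, which acts in autophagosome maturation, at 0.43 with 0.81 in replicate 3.

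The 12 genes of chromatin and transcription had a median of 0.34 (log2) in replicates 1 and 2, and the 9 genes of RNA binding, ribosome assembly and nuclear transport one of 0.32. BTG3, an antiproliferative protein that binds mRNA deadenylases, led the first group. The level of BTG3 was 16.6, 16.7 and 16.7 CPM in Ctrl., 15.9, 18.7 and 17.4 CPM at 10 nM and 27.996, 24.7 and 21.7 CPM at 20 nM, with a fold of 1.46 for 20 nM over the rest. PRRC2C, a large RNA-binding protein of stress granules and translation, led the second. In Ctrl. PRRC2C stood at 247, 237 and 251 CPM, at 10 nM at 231, 232 and 232 CPM and at 20 nM at 367, 354 and 278 CPM. For PRRC2C and BTG3 the replicate 3 library was the lowest at 20 nM. HNRNPR, a neuronal RNA-binding protein, was among the 5 most abundant members. HNRNPR gave 227, 223 and 226 CPM in the Ctrl. libraries, 238, 226 and 228 CPM in those of 10 nM and 290.3, 278 and 255 CPM in those of 20 nM. ZMAT3, a p53-induced RNA-binding protein, lay at 0.40, HDAC1, a histone deacetylase, at 0.27 with 0.62 in replicate 3, and SBNO1 at 0.26. The chaperone DNAJB1 and its fellow heat-shock gene BAG3 lay at 0.30 and 0.27. SLC30A6, a zinc transporter of the Golgi, lay at 0.50 in replicates 1 and 2 and 0.09 in replicate 3, the widest gap between replicates among the 3 transporters. F8A3, at 0.53, has near-identical copies elsewhere on the X chromosome, so its level is uncertain. TMEM181, a membrane protein, lay at 0.49. The 14 genes placed in no role group, among them F8A3 and TMEM181, had a median of 0.31 and a range of 0.25 to 0.53.

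A short 3′ UTR word that the rule had not used was found in 34 of the 119 members and was absent from that region in the other 85. The longest annotated 3′ UTR of each gene (GENCODE 44) was available for all 119 members and for 11345 genes of at least 5 CPM. All 16384 words of 7 bases were ranked, after the members were known, by the number of members that carry the word over the number expected from 3′ UTR length and GC content. Among the 10695 words found in at least 10 members, GATACGA came first, with 15 members against 2.29 expected, and AGATACG second, with 19 against 4.30. The third, CCGGCAA, was at 11 against 3.52, and the ratio then fell slowly. Both leading words hold GATACG, which was present in the 3′ UTR of 34 of the 119, or 28.6% (exact 95% interval 20.7 to 37.6%, counting error only), and in 846 of the 11345 genes, or 7.46%. GATACGA alone was in 12.6% of members and 1.70% of those genes. Shorter and longer forms were looked at before the 6-base form was taken. The word was chosen on these genes and libraries, so the excess is a description with no test.

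The sites below are those of 8 of the most shifted members that carry the word, printed in the sense of the message (hg38, checked against the genome, which matched for 33 of 33 sites examined), with GATACG and any C before it or A after it in capitals:
KLHL2 (chr4:165322169-165322194, plus strand): ctcagcagaaGATACGAtcgtctgcc
ANGPTL2 (chr9:127088757-127088782, minus strand): gaactgaatCGATACGgtgttttctg
ERLIN1 (chr10:100151566-100151591, minus strand): ccttttacttGATACGAtttgcacct
STAT3 (chr17:42315703-42315728, minus strand): gctgcagaaaGATACGActgaggcgc
C12orf73 (chr12:103951376-103951401, minus strand): atgtttagcCGATACGttgaaattta
BTG3 (chr21:17593804-17593829, minus strand): aactctgttgGATACGAgaacactgt
PRRC2C (chr1:171592956-171592981, plus strand): cctgctttatGATACGtagtagtgac
DYRK2 (chr12:67658735-67658760, plus strand): taacctgaaaGATACGAcattgctga
The bases around the word differed from gene to gene. The first base of the word lay 32 bases past the stop codon in DYRK2, 732 bases past it in STAT3 and 1638 bases past it in KLHL2. Of the 34 members, 15 had an A after the word, 3 had a C before it, 16 had neither and 0 had both, and 1 member, IGF1R, had more than 1 site.

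In order of their shift, the members with GATACG included KLHL2, ANGPTL2, ADAM9, ERLIN1, STAT3, C12orf73, BTG3, PRRC2C, DYRK2, DENND6A, SLC30A6, TMEM181, ALG2, TECPR1, NLRC5, SWAP70, ZMAT3, SLC35A1, DPY19L3, RHOBTB1, DHX33, CNNM4, MBD1, ISCU, DERL1, HIVEP3, RAP2A, PITPNA, HNRNPR, IGF1R, SPRING1, USP10 and SEPTIN8. Of the 24 members with the largest shift, 10 carried GATACG. It was found in 6 of the 10 genes of the endoplasmic reticulum group, 5 of the 18 of signalling, 4 of the 12 of chromatin and 4 of the 9 of RNA binding. It was also in 3 of the 10 cytoskeletal genes, 2 of the 10 ubiquitin and SUMO enzymes and 3 of the 15 mitochondrial and metabolic genes. The other groups had it in 2 of 9 shedding and surface genes, 2 of 7 traffic genes, 2 of 3 transporters and 0 of 2 chaperones. Of the 14 unassigned genes 1 carried it. These groups were made after the values were seen, and a link of the word to a role was not tested. The 34 members with the word had a median difference of 0.40 (log2) in replicates 1 and 2 and 0.34 in replicate 3, and the 85 without it 0.34 and 0.32. Members had longer 3′ UTRs than genes of at least 5 CPM, with medians of 2437 and 1984 bases, and a lower GC content, 42.4% and 43.9%. By 3′ UTR length in 3 equal parts the word was in 3 of 31 members and 1.88% of genes among the shortest, 16 of 45 members and 6.22% of genes in the middle, and 15 of 43 members and 14.3% of genes among the longest. In the 3′ UTR of the canonical transcript, the shares were 26.1% of members and 5.68% of genes. In the coding sequence they were 15.97% and 7.21%.

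The reverse complement of the word, CGTATC, served as a word of the same length and GC content and was in 10.1% of members (exact 95% interval 5.32 to 16.95%) and 7.33% of genes. A 7-base or 8-base match to the miR-1229-3p seed, GGTGAGA or GTGAGAA, was in 33 of the 119, or 27.7% (exact 95% interval 19.9 to 36.7%), and in 25.96% of genes of at least 5 CPM, so by raw share the members stood near the background for the mimic's own sites. Against the numbers expected from 3′ UTR length and GC content, GGTGAGA was in 20 members (20.2 expected) and GTGAGAA in 19 (24.7 expected). The 8-base match, GGTGAGAA, was in 6 members, among them C12orf73, SYNM, PRSS12, IGF1R and SBNO1, and in 5.52% of genes. 12 members carried both GATACG and a seed match, and 64 carried neither. The word GATACG was also compared in 2 sets chosen on the same libraries. In the 129 genes that rose stepwise, with every 20 nM library above every 10 nM library and every 10 nM library above every Ctrl. library, it was in 19.4% (exact 95% interval 12.95 to 27.3%). In the 76 genes with a 3′ UTR that were lower only at 20 nM by the rule of the members with its signs turned, it was in 1, or 1.32% (0.0333 to 7.11%).

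**Figure D3:**
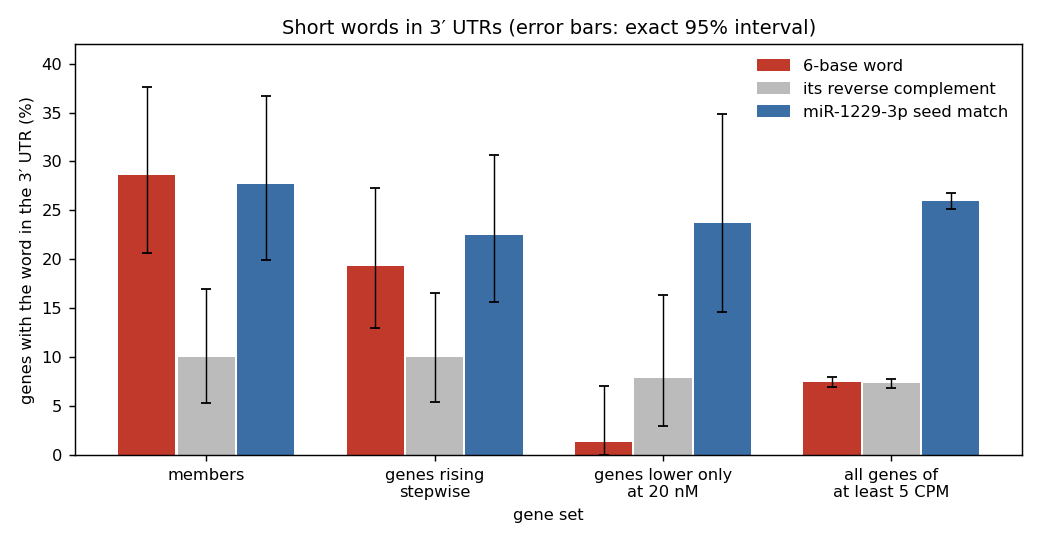
Share of genes (vertical axis, percent) with each word in the longest 3′ UTR, for 4 gene sets; error bars are exact 95% binomial intervals. The 6-base word is GATACG, at 28.6% in the members and 7.46% in all genes of at least 5 CPM, while its reverse complement and the seed match stand near the level of all genes in each set.

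Genes outside the 119 were also examined for the same word. They include genes that failed only 1 step of the rule. The libraries and the contrast are those on which the word was found, so these values are a description and carry no test. ECE1, which carries the word, and UHMK1, which does not, were left out of these counts, as they were of the 119. Of 811 such genes of at least 5 CPM with GATACG in the 3′ UTR, 153 were called higher in 20 nM against Ctrl. by edgeR at an adjusted threshold of 0.05, or 18.9%, and 40 were called lower. Of 10413 without it, 849 were called higher, or 8.15%, and 792 lower. Without the surrogate variable the shares called higher were 7.52% and 3.65%, with the replicate block 12.8% and 8.18%, without replicate 1 of 20 nM 11.5% and 5.19%, and without replicate 2 of 20 nM 12.3% and 4.06%. In 10 nM against Ctrl., 4 of the 811 were called higher and 6 lower, beside 26 higher and 54 lower of the 10413. The median fitted log2 fold change of the 811 was 0.06 in 20 nM against Ctrl. and 0.01 in 10 nM against Ctrl., and that of the 10413 was 0.00 and 0.01, so the shift outside the members was small.

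**Figure D4:**
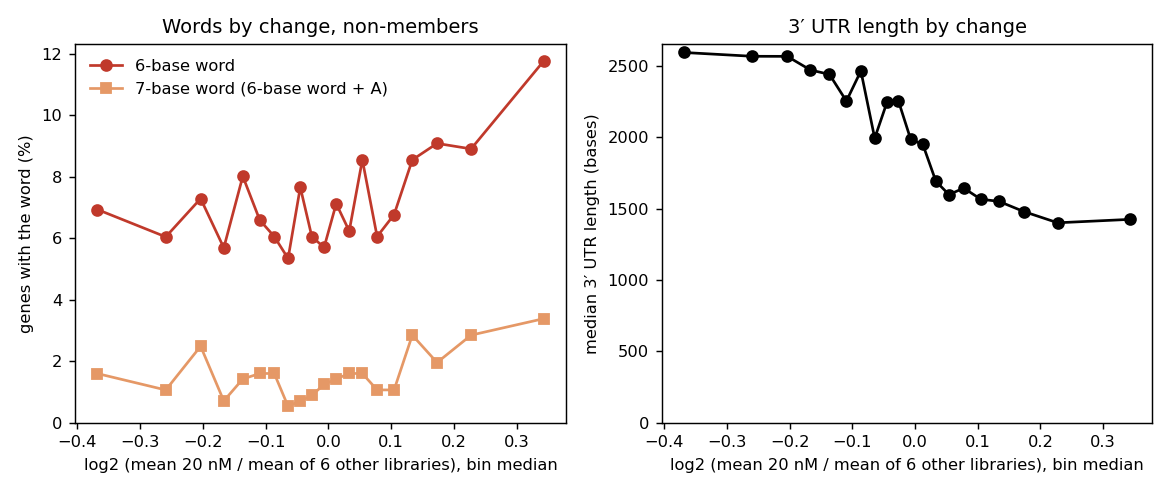
Genes outside the 119 in 20 bins of about 561 genes, placed by the log2 ratio of the mean of 20 nM to the mean of the 6 other libraries (horizontal axis). Left, percent of genes with GATACG (6-base word) and GATACGA (7-base word), which reach 11.8% and 3.39% in the highest bin; right, median 3′ UTR length, which falls from 2592 bases in the lowest bin to 1424 bases in the highest; the bins use the mean of all 3 libraries at 20 nM, and by 3′ UTR length replicate 1 lay within the range of Ctrl.

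The per-library values of these genes showed that replicate 3 of 20 nM did not share the shift as measured. The difference in centred log2 (CPM + 0.5) between genes with and without GATACG was 0.07 in replicate 1 and 0.03 in replicate 2 of 20 nM but -0.04 in replicate 3, against -0.02 to 0.01 in the 6 other libraries. The 3 libraries of 20 nM therefore lay on both sides of the others. The word was more frequent in longer 3′ UTRs, and 3′ UTR length itself went with library differences. Between the longest and the shortest of 3 equal parts by 3′ UTR length, the difference in centred log2 (CPM + 0.5) was 0.07, -0.02 and -0.20 in replicates 1, 2 and 3 of 20 nM, 0.03 to 0.08 in Ctrl. and -0.03 to 0.04 at 10 nM. Replicate 1 of 20 nM thus lay within the range of Ctrl., and replicate 3 lay far below the other 8 libraries, so the fall of length across bins placed by the mean of 20 nM was not shared by all of its libraries. With log 3′ UTR length and GC content as further terms, a choice made after the data were seen, the differences were 0.05, 0.04 and 0.04 in replicates 1, 2 and 3 of 20 nM, -0.02, -0.01 and -0.01 at 10 nM and -0.02, -0.03 and -0.03 in Ctrl. With those terms the 3 groups did not overlap, with Ctrl. lowest and 10 nM between. For CGTATC the adjusted group means were 0.00 in all 3 groups. For miR-1229-3p seed matches the adjusted group means ran the other way, 0.02 in Ctrl., 0.00 at 10 nM and -0.02 at 20 nM. The sequence of the control oligonucleotide was not used here, and what GATACG pairs with was not tested.

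**Figure D5:**
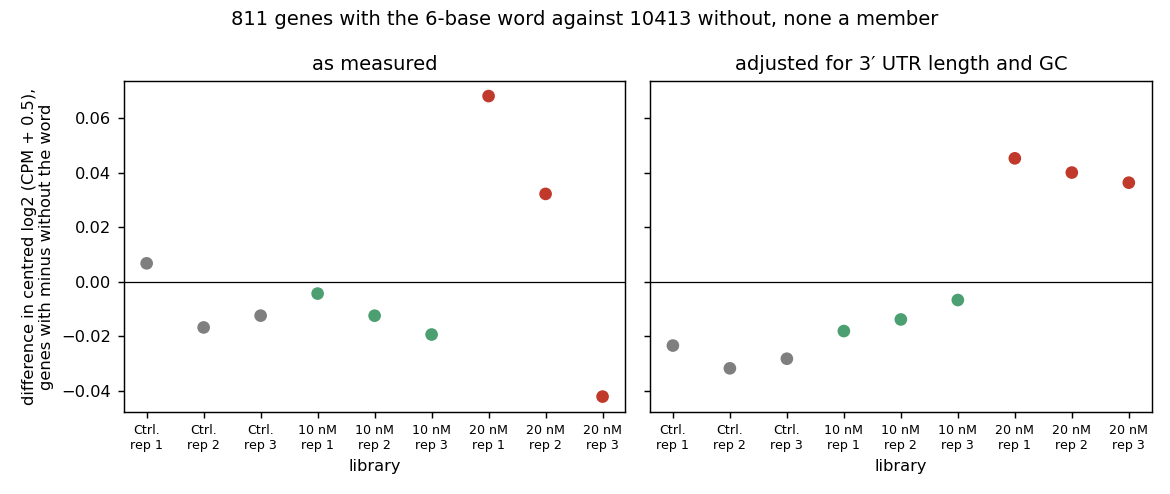
Mean difference in centred log2 (CPM + 0.5) between 811 genes with GATACG and 10413 without it, none a member, in each library; left as measured, right as the coefficient with 3′ UTR length and GC content in the model. As measured, replicate 3 of 20 nM is the lowest library at -0.04; adjusted, all 3 libraries of 20 nM lie between 0.04 and 0.05 and the 6 others below 0.

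Of 23 gene lists, 8 held a member, 9 members in all, which is 1.28% of the 704 different list genes tested, beside 0.796% of all genes. The counts of list genes called higher include members, which the rule chose on this contrast, so part of each such count was set by the rule. For the lists described, the non-members with the smallest adjusted p in 20 nM against Ctrl. are named with their fitted log2 fold change and SE (edgeR fit over all 9 libraries, n = 3 per group). The SE was derived from the F statistic of the fit. A lost call means one that failed the adjusted threshold in an alternative fit. The Golgi glycosylation list, with XYLT2, had 11 of 36 tested genes called higher and 2 lower, and CHPF, a chondroitin polymerising factor, rose by 0.65 ± 0.05 (SE) (adjusted p = 9.52e-06) and ST3GAL1, a sialyltransferase, by 0.83 ± 0.12 (SE). Both kept their call under all 16 alternatives, but their sizes moved. Without the surrogate variable CHPF was at 0.83 and ST3GAL1 at 0.62, and with the replicate block they were at 0.82 and 0.61. MAN1A2, a mannosidase, was at 0.34 ± 0.06 (SE), but its call was lost without the surrogate variable (0.20), with the replicate block (0.19) and without replicate 1 of 20 nM. The receptor tyrosine kinase list, with IGF1R and FGFR4, had 6 of 34 higher and 3 lower, and EGFR rose by 0.43 ± 0.06 (SE) (adjusted p = 0.000443), while ROR1 was at 0.36 ± 0.08 (SE) with its call lost without replicate 1 of 20 nM. PDGFRA was at 0.53 ± 0.13 (SE), but at 0.29 with its call lost without the surrogate variable, and the call was also lost without replicate 1 of 20 nM or replicate 3 of Ctrl. The Wnt list, with CELSR2, had 6 of 37 higher and 3 lower, and CTNNB1, the gene of beta-catenin, rose by 0.63 ± 0.06 (SE) (adjusted p = 2.91e-05), TCF7 rose by 0.41 ± 0.06 (SE) and VANGL2 was at -0.35 ± 0.06 (SE), with its call lost without the surrogate variable. The Notch list, with ADAM17, had 3 of 28 higher and 1 lower, the lower one being NUMB, a Notch antagonist, at -0.58 ± 0.06 (SE) (adjusted p = 3.87e-05), called under all 16 alternatives. NOTCH1 was at 0.41 ± 0.11 (SE), with its call lost without replicate 1 or 3 of Ctrl. or replicate 2 of 20 nM. DTX1, at 0.17 ± 0.05 (SE), lost its call in 9 of the 16 alternatives, with values of 0.15 to 0.35.

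The list of presynaptic adhesion and LDL receptor genes, with LRP4, had 5 of 28 higher and 3 lower, and VLDLR rose by 0.60 ± 0.10 (SE) (adjusted p = 0.00175), while PTPRF was at 0.24 ± 0.05 (SE) and APP at 0.24 ± 0.06 (SE). Both lost their call without replicate 2 of 20 nM, and APP also without replicate 3 of Ctrl., and PTPRF was at 0.46 without the surrogate variable. The p53 target list, with ZMAT3, had 2 of 25 higher and 1 lower, with BBC3 at 0.38 ± 0.09 (SE) (adjusted p = 0.0175) and GDF15 at -0.93 ± 0.28 (SE). BBC3 lost its call without replicate 1 or 3 of Ctrl. or replicate 2 of 20 nM and ranged from 0.21 to 0.62 over the alternatives. GDF15 lost its call in 7 of the 16, was at -0.32 without the surrogate variable and at -0.34 with the replicate block, and is not read as a change. The list of SR proteins and hnRNPs, with HNRNPR, had 3 of 30 higher and 4 lower, with PTBP2 at -0.45 ± 0.08 (SE) (adjusted p = 0.00233), RBFOX2 at -0.21 ± 0.04 (SE) and HNRNPM at 0.20 ± 0.05 (SE). The calls of PTBP2 and RBFOX2 held under all 16 alternatives, while HNRNPM lost its call without the surrogate variable (0.36), without replicate 2 of 20 nM and without replicate 3 of Ctrl. In the 15 lists without a member, the share called higher ran from 0% to 27.6% and the share called lower from 0% to 32.4%, beside 7.8% and 6.08% of all genes. In 10 nM against Ctrl., the 8 lists with a member had 1 gene called higher, CHPF, and 1 lower, NUMB.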

How the data were processed

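Polyadenylated RNA of 9 SH-Sy5y libraries was measured. The authors quantified paired reads with Salmon against GRCh38.p13 with an Ensembl annotation, summed transcripts per gene symbol, filtered low genes and deposited estimated counts; strand use and tool versions are not given in the sources used here. The deposited comparison tables (log2 fold change, p-value and false discovery rate) and the batch-corrected log2 table were not used, and 0 sample columns were left unassigned. The genes, role groups, gene lists and 3′ UTR words were chosen with earlier results of these data known.

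Here counts were rounded and fitted with edgeR 4.0.16 (TMM, quasi-likelihood test, 1 surrogate variable from sva 3.50.0, as the authors' methods use surrogate variables) over 14943 genes and 9 libraries, with Benjamini-Hochberg adjustment over all genes. CPM used library totals of 17423969 to 28192775. Alternatives were DESeq2 1.42.0, other scalings, no or 2 surrogate variables, a replicate block, a minimum of 5 CPM and leaving out each library in turn. The scripts were tested on simulated data. 3′ UTRs of at least 50 bases came from GENCODE 44 (GRCh38), matched by Ensembl identifier for 113 members and by symbol for 6 (ADAM9, NDUFA6, BTG3, SGPP1, HNRNPR and TUBGCP3). Shares carry exact Clopper-Pearson 95% intervals, which cover counting error only.

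Genes were named by rule: the 24 members with the largest difference in replicates 1 and 2 at 20 nM, the 5 most abundant, every member in a gene list or with an 8-base seed match, the 2 nearest each threshold on either side, and of each list the up to 3 called non-member genes with the smallest adjusted p, shown here for lists that hold a member; some genes and 1 list that the rule names are not reported here. Other members were named after their values were seen, to fill the role groups.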

Additional observations from a re-analysis of the deposited data

How the results depend on the processing

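The calls of the 119 in 20 nM against Ctrl. stayed within 1.5 times of 100 under all 16 alternative fits, and 0 were called in 10 nM against Ctrl. under each. Without the surrogate variable, 29 members were called higher against 10 nM, all genes called were 573 higher in 20 nM against Ctrl., 61 higher in 20 nM against 10 nM and 5 in 10 nM against Ctrl., the members' median was 0.41, 48 genes of the lists (93 in the main fit) were called higher and the share of non-member genes with GATACG called higher was 7.52%. With the replicate block, 44 members and 108 genes were called higher against 10 nM, 3 genes were called in 10 nM against Ctrl., the members' median was 0.41 and 108 members were called higher against Ctrl. Same-numbered libraries correlated by 0.03 to 0.19 in their deviations from the group means, 8 of 9 pairs above 0.1, and differently numbered ones by -0.17 to 0.03, so the numbers went with part of the spread. The ninth pair, replicate 2 of 10 nM and 20 nM, was at 0.03, as was replicate 2 of 20 nM with replicate 1 of 10 nM. The labels do not say that same-numbered libraries share a culture. The main fit therefore had no replicate block, and the fit with the block is given beside it. DESeq2 called 218 genes in 10 nM against Ctrl. The 8-base seed match alone was in 5.04% of members.

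Leaving out 1 library at a time gave 107 to 229 genes by the rule, 34 to 83 members called higher against 10 nM, 634 to 1462 genes higher in 20 nM against Ctrl., 93 to 315 genes higher against 10 nM, 34 to 160 genes called in 10 nM against Ctrl., a members' median of 0.36 to 0.39, 51 to 123 list genes called higher and 11.5 to 21.2% of non-member genes with GATACG called higher. Scaling by TMM gave 132 genes by the rule, 109 of them shared with the 119, and DESeq2 size factors 121, with 106 shared. GATACG was in 28.03% of the members found with TMM and 28.4% of those found without replicate 3 of 20 nM, both chosen after seeing the data. Of 352 refits of 22 list genes, 40 lost the call and 0 changed sign; DTX1 (9) and GDF15 (7) lost it most often.

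Groups of 3 were too small for a test of single outlying samples. The full mimic dose and the missing control oligonucleotide cannot be told apart. A rule with 3 thresholds on noisy means gives a set whose edge moves with the libraries used.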
